A study of Mus musculus with 11 samples.

Results

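The genes of the primary cilium and of cystic kidney disease were followed across 4 compartments of the fetal mouse kidney and ureter. Members were chosen by symbol: all Ift, Bbs and Nphp genes followed by a number, the tectonic genes Tctn1 to Tctn3, and a list of named ciliary and cystic genes such as Pkd1, Pkhd1 and Cep290. Of the 18193 genes with a probe set of 1 symbol on the array, 40 were members, read from 67 probe sets. Of these, 39 passed the filter on dim probe sets and were among the 13614 genes tested. Tmem67, which encodes meckelin of the transition zone, did not pass. Of the symbols listed by name, 2 (Pkd2 and Arl13b) had no probe set with 1 symbol here and were not analysed.

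All samples came from wild-type CD-1 mice, an outbred stock, at E15.5 (Theiler stage 23), and no animal carried an engineered allele or received an agent, as far as the labels state. RNA from laser-captured regions of sections was hybridised to one-colour Affymetrix mouse expression arrays. Cortical collecting duct had 2 arrays, and early proximal tubule, ureteral smooth muscle and urothelium, the lining epithelium of the ureter, had 3 each. In the plots these are abbreviated CCD, EPT, USM and URO. Each array held a pool of about 50 sections from 5 kidneys, amplified in 2 rounds, and nothing states whether pools shared animals, so p-values measure only the spread between these pools. The sex of the fetuses is given as unknown.

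The primary cilium is a single, non-motile, microtubule-based projection found on most epithelial and many mesenchymal cells. It is built and maintained by intraflagellar transport, in which kinesin-2 carries protein trains toward the tip and a dynein carries them back, while the transition zone at its base and the BBSome control which membrane proteins enter and leave. In kidney tubules the polycystins and fibrocystin sit in this membrane, and loss of many of these genes gives cystic kidneys or nephronophthisis.

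Levels below are log2(signal + 55), where signal is the deposited linear intensity, and differences are differences of these log2 levels, written with their standard error (SE). Adding 55 shrinks the differences of dim genes. A gene was called in a comparison at an adjusted p under 0.05 (limma's moderated test, Benjamini-Hochberg over all 13614 genes) with an absolute log2 difference of at least 1. Levels are compared between compartments for 1 probe set at a time, never between genes.

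The compartments carried their own markers. Each compartment's marker list had its highest summed signal on that compartment's arrays, such as 129952 to 178234 for 7 proximal tubule markers in proximal tubule against at most 10132 elsewhere. Urothelium also carried signal of other lists. Its arrays 1, 2 and 3 had summed smooth muscle marker signals of 63152, 38635 and 10127, against 222901 to 284593 in muscle, and collecting duct marker signals of 11991, 10299 and 35505, against 72675 and 75426 in collecting duct. Urothelium array 3 stood apart on its own markers, with a summed urothelium signal of 15691 against 65082 and 39648 on arrays 1 and 2, still above the 983 to 4224 of the other compartments. Interstitium markers summed to 44157, 8790 and 37571 on the urothelium arrays and to 176703 to 192780 in muscle. On collecting duct arrays 1 and 2 they summed to 9736 and 27152. Proximal tubule markers summed to 2496 and 8388 on these arrays, and nephron progenitor markers to 2943 and 8006. Smooth muscle markers were alike on the collecting duct arrays, at 3299 and 3186. Loop of Henle markers summed to 12996 to 33985 in urothelium, 26837 and 55816 in collecting duct and 25831 to 31009 in proximal tubule. Correlations across genes ran from 0.884 to 0.933 within a compartment, and reached 0.909 between compartments. The ratio of 3′ to 5′ actin signal, a measure of RNA integrity, ran from 7.35 to 13.5 in proximal tubule, was 6.19 and 13.4 in collecting duct, and ran from 5.07 to 8.16 in muscle and from 5.15 to 6.66 in urothelium. The same ratio for Gapdh was 16.7, 55.3 and 29.7 in urothelium, where 2 of the 3 arrays exceeded all others, against 12.3 and 25.9 in collecting duct, 10.5 to 18.2 in proximal tubule and 6.79 to 13.7 in muscle. The part of RNA integrity in the results was not tested. A date-like part of the labels split the arrays into 4 label batches, and urothelium shared none with collecting duct or proximal tubule. Those comparisons have no value within a batch, and a fit with batch as a block reaches them only through arrays of the other compartments.

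Of the 39 genes tested, 13 were called in at least 1 of 7 comparisons and 26 in none. Against the mean of the other 3 compartments, 10 were called higher in proximal tubule, where 9.53% of all genes tested were, and 0 lower, where 6.41% were. In smooth muscle 8 were called lower (9.12% of all genes tested) and 0 higher (6.05%). In collecting duct 2 were called higher (1.42%) and 0 lower (0.624%). In urothelium limma called 0 higher (1.65%) and 0 lower (0.713%), with 5 at an unadjusted p under 0.05. The median difference of the 39 genes was 0.81 in proximal tubule, against 0.05 over all genes tested, and -0.32 in muscle, against -0.07. It was -0.12 in collecting duct (all genes, -0.03) and -0.18 in urothelium (all genes, 0.01). In this bulk material fewer cells of a type and less RNA per cell cannot be told apart.

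Between pairs of compartments the calls were fewer. Urothelium against proximal tubule gave 6 lower (6.44% of all genes tested) and 0 higher (5.02%). Collecting duct against proximal tubule gave 0 higher (2.19%) and 0 lower (3.65%), with 4 at an unadjusted p under 0.05. Urothelium against collecting duct gave 0 higher (0.162%) and 0 lower (0.0955%), with 5 at an unadjusted p under 0.05. These comparisons share arrays with each other and with the comparisons of 1 compartment against the rest.

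The range of the 4 compartment means had a median of 1.20 over the members and 1.14 over all genes tested, and it was under 1 for 15 members. It was 2 or more for 7 members (17.9%, against 19.5% of all genes tested). The highest mean lay in proximal tubule for 23 of the 39 (32.7% of all genes tested). It lay in smooth muscle for 8 (24.4%), in collecting duct for 4 (20.8%) and in urothelium for 4 (22.0%). The lowest mean lay in smooth muscle for 17 (30.1% of all genes tested). It lay in collecting duct for 11 (23.3%), in urothelium for 7 (20.5%) and in proximal tubule for 4 (26.1%).

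**Figure D1:**
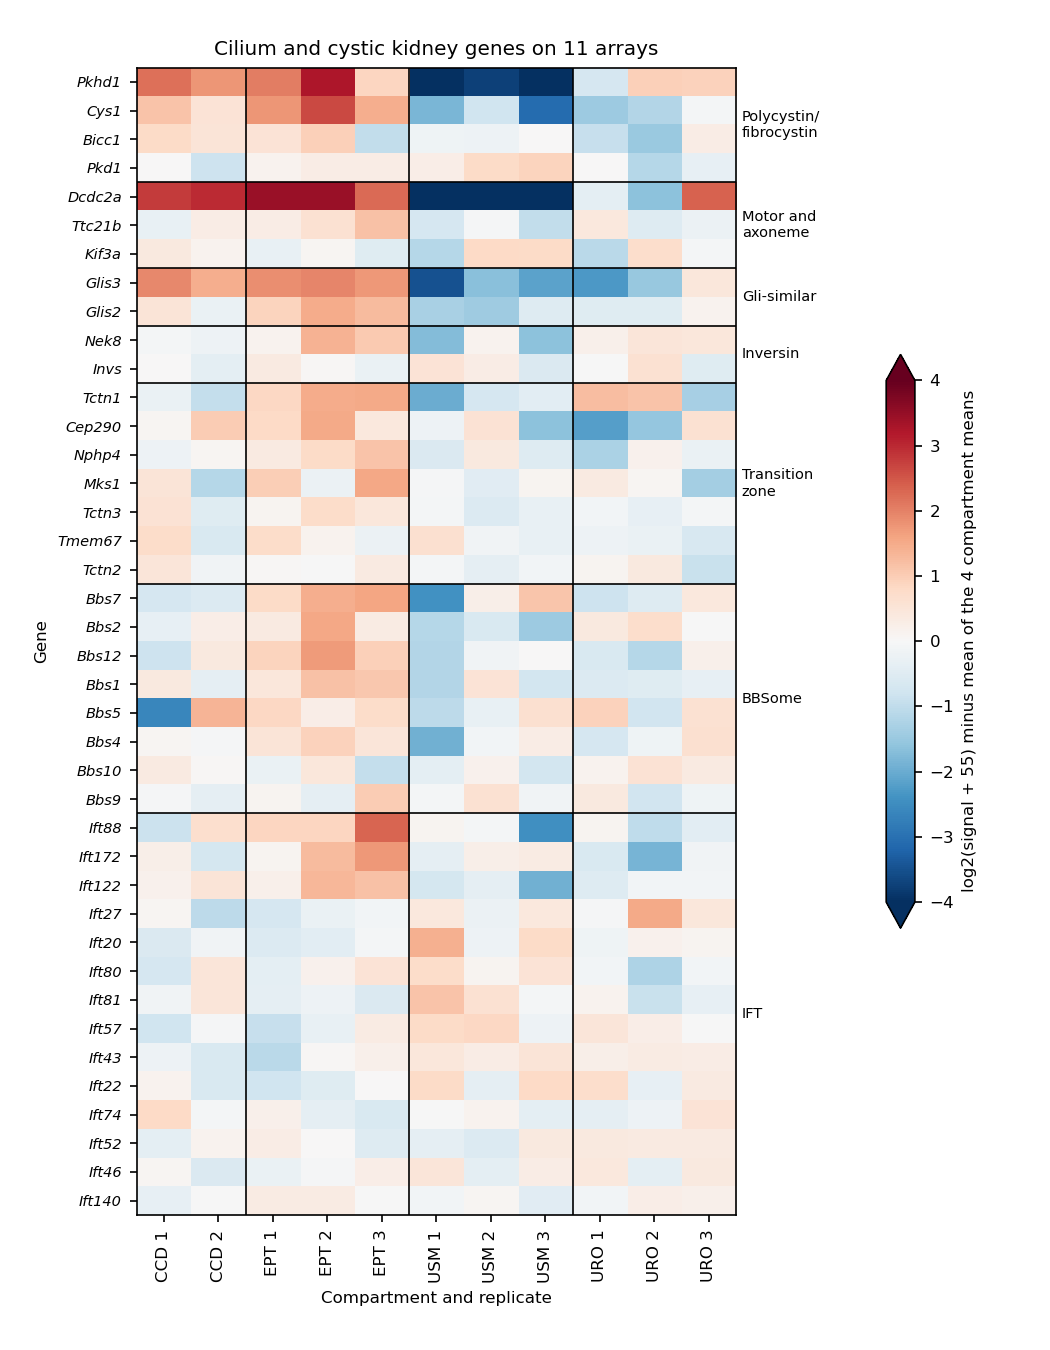
The 40 genes (rows, grouped by role) on the 11 arrays (columns, by compartment and replicate). Colour gives log2(signal + 55) minus the mean of the gene's 4 compartment means, red above and blue below it, and the colour scale ends at 4 in either direction. Dcdc2a and Pkhd1 form dark blue blocks in smooth muscle, while most intraflagellar transport genes are pale throughout.

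The fibrocystin group held the second widest contrast. Pkhd1 (chr1:20057779-20618082, GRCm38.p6) encodes fibrocystin, the protein lost in autosomal recessive polycystic kidney disease. Its levels were 12.88 and 12.44 in collecting duct, 12.71, 13.91 and 11.53 in proximal tubule, 5.87, 6.94 and 5.84 in smooth muscle, and 9.98, 11.63 and 11.57 in urothelium. All muscle arrays lay below all others, with deposited signals of 3.3, 67.9 and 2.2, near 0. Pkhd1 was lower in muscle by a log2 difference of -5.93 ± 0.51 (SE, adjusted p = 7.1e-06 by limma). With signals this low the size depends on the added constant, and it was -7.43 with 12 and -4.47 with 190 in place of 55, the call holding with either. Pkhd1 was higher in proximal tubule by 2.74 ± 0.51 (adjusted p = 0.0025) and in collecting duct by 2.66 ± 0.59 (adjusted p = 0.033). Muscle enters the mean of the other 3 in both, so these sizes also depend on its signals near 0. Collecting duct minus proximal tubule was -0.05. Urothelium against proximal tubule was -1.65 (adjusted p = 0.102) and was called without proximal tubule 3 (-2.25, adjusted p = 0.0404). Collecting duct and proximal tubule overlapped, and both urothelium and muscle were apart from collecting duct. The collecting duct call was lost without any one of 5 arrays (collecting duct 1 or 2, proximal tubule 1, muscle 1 or 3), at differences of 2.44 to 2.88 and adjusted p of 0.0517 to 0.304.

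The 250 bases upstream of the Pkhd1 start site are shown because Pkhd1 was called in 3 comparisons and was the member whose RefSeq promoter held a near match to a hepatocyte nuclear factor 1 site. The pattern searched was GTTAAT, 1 free base and ATTAAC, on both strands. An exact match was in 0 of the 34 member promoters and 3 of 27025 promoters in all (0.0111%). With at most 1 mismatch it was in 1 of 34 members (2.94%) and 0.248% of all. The match, in capitals, lies 79 to 67 bases before the start site on the minus strand of chr1:20618058-20618307. A match describes letters, and whether it is bound or acts on the gene was not tested.
Pkhd1 upstream: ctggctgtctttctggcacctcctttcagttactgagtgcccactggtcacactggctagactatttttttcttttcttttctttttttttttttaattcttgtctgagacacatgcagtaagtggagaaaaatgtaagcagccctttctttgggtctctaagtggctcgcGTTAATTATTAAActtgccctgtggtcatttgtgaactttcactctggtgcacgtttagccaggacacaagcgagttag

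Cys1 (chr12:24665833-24681886) encodes cystin, a ciliary membrane-associated protein lost in the cpk cystic mouse. It measured 12.03 and 11.42 in collecting duct, 12.64, 13.51 and 12.33 in proximal tubule, 9.05, 10.07 and 7.80 in muscle, and 9.41, 9.70 and 10.81 in urothelium. All 3 proximal tubule arrays were above all others, and muscle and urothelium overlapped. Cys1 was higher in proximal tubule by 2.60 ± 0.48 (adjusted p = 0.0023) and lower in muscle by -2.53 ± 0.48 (adjusted p = 0.0027). It was also lower in urothelium than in proximal tubule, by -2.85 ± 0.58 (adjusted p = 0.006).

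The other genes of this group with values here, Pkd1 and Bicc1, were not called, and Pkd2 was not measured. Pkd1, which encodes polycystin-1, the large receptor-like protein most often mutated in dominant polycystic kidney disease, measured 9.58 and 8.74 in collecting duct, 9.70, 9.84 and 9.85 in proximal tubule, 9.81, 10.33 and 10.44 in muscle, and 9.56, 8.43 and 9.22 in urothelium. Its mean was highest in muscle, where the difference was 0.85 ± 0.34 (95% interval 0.117 to 1.58, adjusted p = 0.119), and muscle overlapped with proximal tubule. Both lay above all collecting duct and urothelium arrays. Bicc1, an RNA-binding protein mutated in cystic mouse lines, measured 13.60 and 13.35 in collecting duct, 13.39, 13.79 and 11.84 in proximal tubule, 12.67, 12.62 and 12.85 in muscle, and 11.91, 11.35 and 13.12 in urothelium. On the probe set used, collecting duct lay above muscle and urothelium and within the proximal tubule range, and the muscle difference was -0.16 ± 0.45. Its other probe sets were above the array median on all 11 arrays, and on each of them collecting duct overlapped with muscle. On the brighter one collecting duct (13.25 and 11.66) also overlapped with urothelium. The proximal tubule difference was 1.17 on the brighter and -0.32 on the dimmer one.

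Among motor and axoneme genes, Dcdc2a had the widest range of compartment means of the 40 genes. Dcdc2a (chr13:25055273-25210706) encodes a doublecortin-domain protein that binds microtubules and locates to the cilium. Its levels were 15.01 and 15.20 in collecting duct, 15.67, 15.67 and 14.47 in proximal tubule, 6.10, 6.25 and 6.09 in smooth muscle, and 11.82, 10.58 and 14.58 in urothelium. The muscle signals were 13.6, 20.9 and 13, against 22592 to 52093 in proximal tubule, and muscle did not overlap with any other compartment. The difference was -8.09 ± 0.63 in muscle (adjusted p = 4.6e-06), 4.08 ± 0.63 in proximal tubule (adjusted p = 0.00067) and 3.86 ± 0.72 in collecting duct (adjusted p = 0.0144). The muscle signals lie below the added 55, so the size of the muscle difference is set in part by it: -9.44 with 12 and -6.57 with 190, the call holding with either. Muscle enters the mean of the other 3 in the proximal tubule and collecting duct differences, so those sizes depend on its level. Collecting duct and proximal tubule overlapped, and collecting duct minus proximal tubule was -0.16. The collecting duct call was lost without either collecting duct array (differences 3.76 and 3.96, adjusted p 0.15 and 0.182).

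The size of the Dcdc2a contrast depended on the probe set. A different Dcdc2a probe set, above the array median on all 11 arrays, differed by -1.12 in muscle, 1.23 in proximal tubule and 1.26 in collecting duct, with the same signs and smaller sizes. On that probe set urothelium (8.41, 8.84 and 9.24) overlapped with muscle (8.84, 9.38 and 8.81). Its urothelium difference from the mean of the other 3 compartments was -1.37, against 0.15 on the probe set used. When its probe sets were averaged instead of taking the brightest, the muscle difference was -4.61 and the call held, and the differences were 2.65 in proximal tubule and 2.56 in collecting duct. In urothelium Dcdc2a was highest on array 3, the array with the highest collecting duct marker signal of the 3 and the lowest smooth muscle and urothelium marker signals. The part of those markers in the result was not tested. Urothelium against proximal tubule gave -2.94 ± 0.76 (adjusted p = 0.023), lost without proximal tubule 1 or 2 or urothelium 1 or 2 (differences -2.07 to -2.74, adjusted p 0.0731 to 0.0855).

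**Figure D2:**
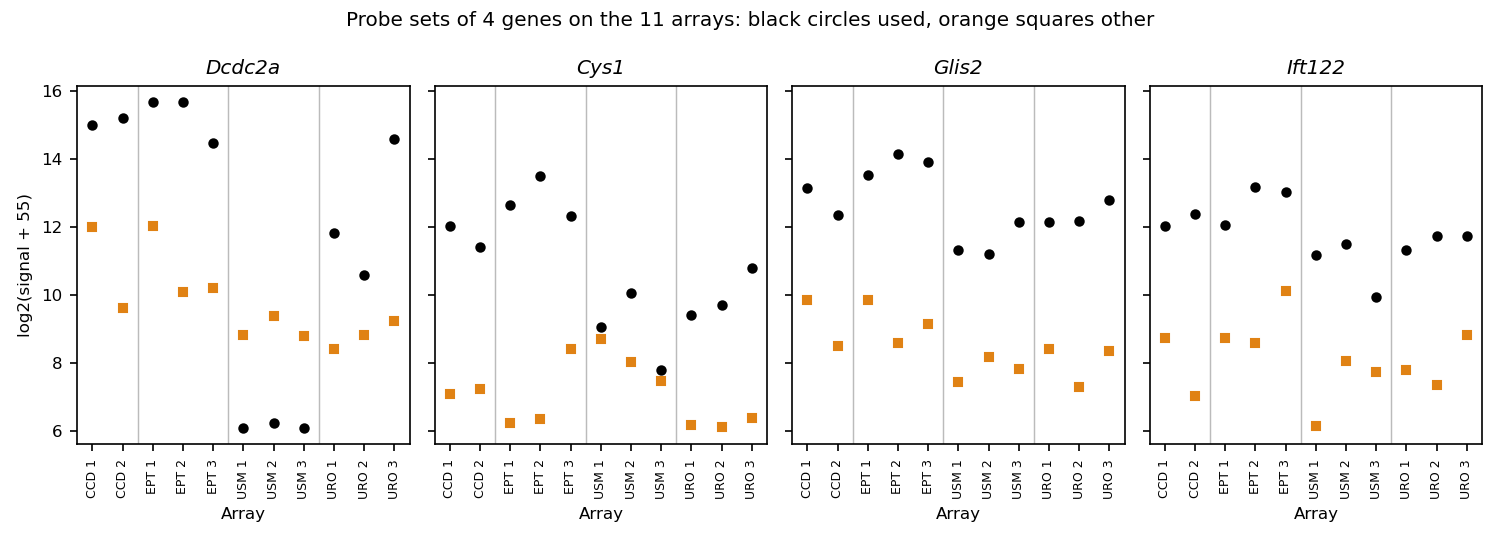
Levels as log2(signal + 55) of the probe set used (black circles) and the other probe set (orange squares) of Dcdc2a, Cys1, Glis2 and Ift122 on each of the 11 arrays, with grey lines between compartments. In muscle the used Dcdc2a probe set falls to 6.09 to 6.25, while the other lies at 8.81 to 9.38.

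For the 13 comparisons of a called gene with another probe set, 10 differences had the same sign as the one used, and 9 of 9 did where that probe set passed the filter. The exceptions were dim probe sets of Cys1, which differed by -0.15 in proximal tubule and 1.27 in muscle, and of Nek8, which differed by 0.37 in muscle. The 13 came from the other probe sets of Dcdc2a, Cys1, Glis2, Ift122 and Nek8, and the 9 from those of Dcdc2a, Glis2 and Ift122. Comparisons of the same probe set share arrays, so they are not separate checks. The remaining called genes had no other probe set.

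Kif3a, a motor subunit of the kinesin-2 that drives transport toward the ciliary tip, was not called. It measured 11.51 and 11.27 in collecting duct, 10.82, 11.19 and 10.62 in proximal tubule, 9.97, 11.91 and 11.87 in muscle, and 10.03, 11.82 and 11.04 in urothelium. Its 4 compartment means spanned 0.52, less than the SD within muscle (1.11) or urothelium (0.90). Ttc21b, a retrograde transport subunit, differed by 0.91 ± 0.35 in proximal tubule (adjusted p = 0.0966).

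**Figure D3:**
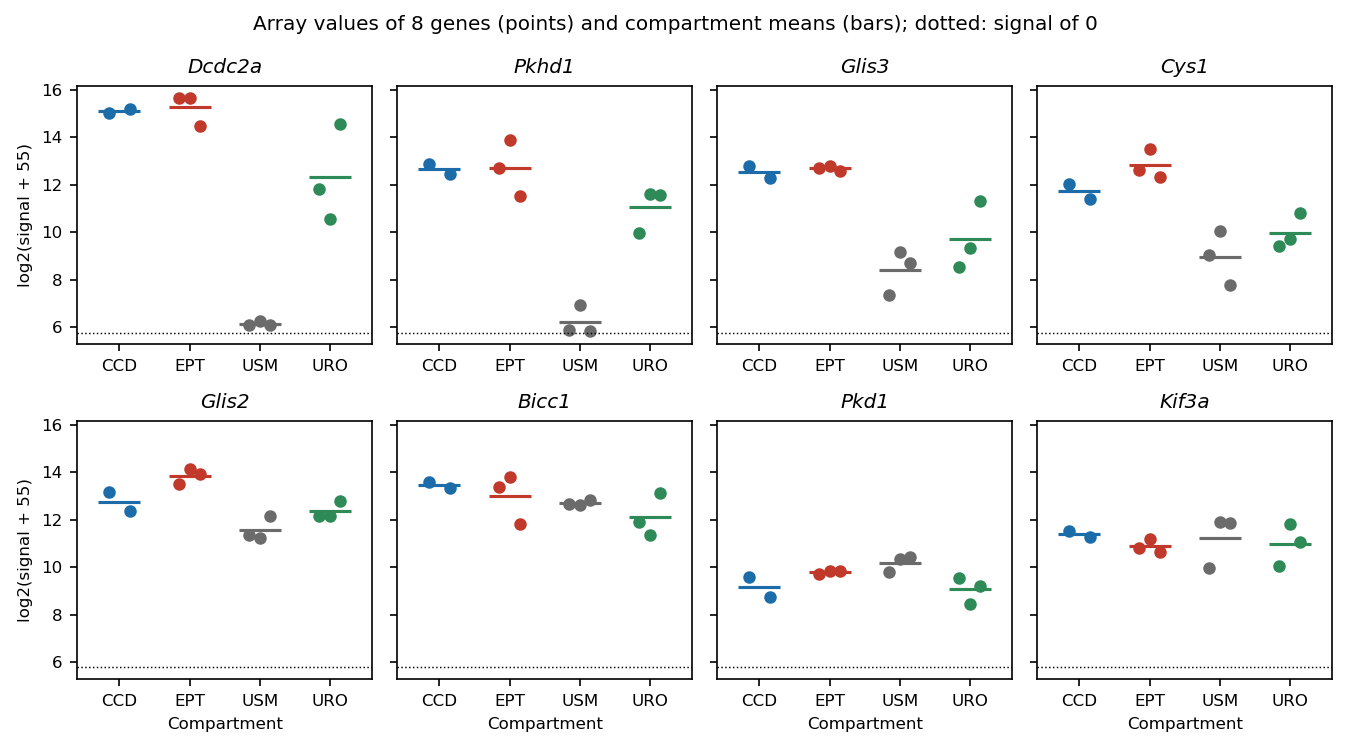
Levels as log2(signal + 55) of 8 genes on each array (points) with the compartment mean (bars), for collecting duct (CCD), proximal tubule (EPT), smooth muscle (USM) and urothelium (URO). The dotted line marks a signal of 0, which Dcdc2a and Pkhd1 approach in muscle, while the Kif3a points of muscle and urothelium overlap those of collecting duct and proximal tubule.

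Both Gli-similar transcription factors were called higher in proximal tubule and lower in smooth muscle. Glis3 (chr19:28258851-28680265), a zinc-finger factor whose loss gives cystic kidneys, measured 12.78 and 12.31 in collecting duct, 12.72, 12.79 and 12.59 in proximal tubule, 7.37, 9.17 and 8.71 in muscle, and 8.54, 9.33 and 11.30 in urothelium. Muscle and urothelium overlapped and both lay below collecting duct and proximal tubule. The difference was -3.24 ± 0.53 in muscle (adjusted p = 0.00088), 2.47 ± 0.53 in proximal tubule (adjusted p = 0.0059) and -2.98 ± 0.63 for urothelium against proximal tubule (adjusted p = 0.008).

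Glis2 (chr16:4594320-4625141), a nephronophthisis gene, measured 13.16 and 12.37 in collecting duct, 13.52, 14.14 and 13.91 in proximal tubule, 11.34, 11.21 and 12.14 in muscle, and 12.16, 12.17 and 12.79 in urothelium. Proximal tubule lay above and muscle below all other arrays. Glis2 differed by 1.62 ± 0.34 in proximal tubule (adjusted p = 0.0054), -1.44 ± 0.34 in muscle (adjusted p = 0.0109) and -1.49 ± 0.41 in urothelium against proximal tubule (adjusted p = 0.032). The muscle call was lost without muscle 1 or 2 (differences -1.26 and -1.33, adjusted p 0.0579 and 0.062). The urothelium call was lost without proximal tubule 2 or 3 or urothelium 1 or 2 (differences -1.34 to -1.46, adjusted p 0.076 to 0.116).

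Urothelium array 3 bore on several of these results. Without it, Glis3 was called lower in urothelium against the mean of the other 3 (-2.29, adjusted p = 0.0189, against -1.50 and 0.174 with it) and against collecting duct (-3.61, adjusted p = 0.0111, against -2.82 and 0.121). Dcdc2a was then also called lower in urothelium than in collecting duct (-3.91, adjusted p = 0.0054, against -2.78 and 0.205). Glis3 was called higher in collecting duct (2.53, adjusted p = 0.0123, against 2.26 and 0.0791), so that collecting duct had 3 calls. Cep290, a transition zone protein, was called lower in urothelium against the mean of the other 3 (-2.21, adjusted p = 0.0479, against -1.39 and 0.27) and against proximal tubule (-2.78, adjusted p = 0.0129, against -1.96 and 0.094). Cep290 signals on urothelium arrays 1 and 2 were 20.2 and 63.7, near the added 55, so these sizes depend on that constant. It was above the array median on 6 of the 11 arrays.

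In the inversin compartment, a segment of the proximal cilium, Nek8 was called and Invs was not. Nek8, a kinase mutated in the jck cystic mouse, measured 9.58 and 9.43 in collecting duct, 9.78, 11.03 and 10.69 in proximal tubule, 7.90, 9.78 and 8.02 in muscle, and 9.85, 10.12 and 10.09 in urothelium. Muscle arrays 1 and 3 were lower than all others, and array 2 was within them. The difference in muscle was -1.45 ± 0.42 (adjusted p = 0.034). That call was lost without collecting duct 1 or 2, proximal tubule 2 or 3 or muscle 1 or 3 (differences -1.11 to -1.47, adjusted p 0.0525 to 0.184). In proximal tubule Nek8 differed by 1.14 ± 0.42 (adjusted p = 0.0872) and was called higher without muscle 2 (1.34, adjusted p = 0.0206). The compartment means of Invs, which encodes inversin, spanned 0.27.

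Of 6 transition zone genes tested, Tctn1 was called and the other 5 (Cep290, Mks1, Nphp4, Tctn2 and Tctn3) were not. All 6 differences were above 0 in proximal tubule, with a median of 1.00 (all genes tested, 0.05). In muscle all 6 were below 0, with a median of -0.37 (all genes tested, -0.07). Tctn1, a tectonic of the protein complex that gates the ciliary base, measured 8.78 and 8.10 in collecting duct, 9.86, 10.51 and 10.56 in proximal tubule, 7.06, 8.37 and 8.63 in muscle, and 10.26, 10.19 and 7.71 in urothelium. Urothelium arrays 1 and 2 lay within the proximal tubule range and array 3 within the muscle range. It was higher in proximal tubule by 1.70 ± 0.53 (adjusted p = 0.046). The call was lost without either collecting duct array, any proximal tubule array or muscle 1 or 2 (differences 1.54 to 1.92, adjusted p 0.0535 to 0.157). Without urothelium 3 it was also called lower in muscle (-1.64, adjusted p = 0.0129, against -1.36 and 0.112). Tmem67, which was not tested, ranged from 6.83 to 8.20 over the 11 arrays and was above the array median on 0.

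The 8 Bbs genes encode subunits of the BBSome, a coat complex that moves membrane proteins out of the cilium, and, in Bbs10 and Bbs12, chaperonin-like proteins that help assemble it. Of the 8, 2 were called higher in proximal tubule (the subunit gene Bbs1 and the chaperonin gene Bbs12) and 1 lower in muscle. Over all genes tested these shares were 9.53% and 9.12%. The median difference of the 8 was 0.92 in proximal tubule (all genes tested, 0.05) and -0.53 in muscle (all genes tested, -0.07). Bbs12 measured 9.98 and 11.20 in collecting duct, 11.70, 12.51 and 11.78 in proximal tubule, 9.63, 10.66 and 10.82 in muscle, and 10.20, 9.67 and 11.03 in urothelium. Proximal tubule lay above all other arrays, by 1.57 ± 0.42 (adjusted p = 0.021), and the call was lost without proximal tubule 2 or 3 (differences 1.32 and 1.69, adjusted p 0.0525 and 0.122). Urothelium was lower than proximal tubule by -1.69 ± 0.50 (adjusted p = 0.043), a call lost without any proximal tubule array, muscle 2 or urothelium 1 or 2 (differences -1.38 to -1.84, adjusted p 0.0538 to 0.157).

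Bbs1, a core BBSome subunit, measured 10.83 and 10.07 in collecting duct, 10.89, 11.61 and 11.52 in proximal tubule, 9.27, 10.97 and 9.70 in muscle, and 9.89, 9.96 and 10.10 in urothelium. Muscle array 2 lay within the proximal tubule range, and the difference in proximal tubule was 1.20 ± 0.38 (adjusted p = 0.0486). That call was lost without any one of 9 arrays, all but collecting duct 1 and muscle 2 (differences 1.07 to 1.43, adjusted p 0.0597 to 0.187). Urothelium against proximal tubule was -1.36 (adjusted p = 0.076) and was called without muscle 2 (adjusted p = 0.0443). Bbs2, also a core subunit, measured 10.07 and 10.65 in collecting duct, 10.74, 11.94 and 10.70 in proximal tubule, 9.23, 9.77 and 8.93 in muscle, and 10.78, 11.08 and 10.36 in urothelium. All muscle arrays lay below all others, by -1.43 ± 0.37 (adjusted p = 0.0167), and the call was lost without muscle 1 or 3 (differences -1.24 and -1.39, adjusted p 0.0672 and 0.0935). Bbs7 differed by 1.69 ± 0.59 in proximal tubule and was not called (adjusted p = 0.0706), but was without muscle 1 (1.35, adjusted p = 0.0314) or muscle 3 (1.94, adjusted p = 0.0242). Without muscle 1 it was also called lower in collecting duct than in proximal tubule (-1.88, adjusted p = 0.045, against -1.88 and 0.223 with it) and lower in urothelium than there (-1.57, adjusted p = 0.0386, against -1.57 and 0.18). Bbs5 measured 6.65 and 10.62 on the 2 collecting duct arrays, and without the second of them it was called lower in collecting duct than in proximal tubule (-3.21, adjusted p = 0.0448, against -1.23 and 0.537).

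The 14 intraflagellar transport genes encode the machinery of cilium assembly. Their median difference was -0.21 in proximal tubule (all genes tested, 0.05) and 0.22 in muscle (all genes tested, -0.07). The difference was above 0 for 5 of 14 in proximal tubule and 9 of 14 in muscle. Of the 14, 2 were called higher in proximal tubule (9.53% of all genes tested) and 1 lower in muscle (9.12%). In urothelium against proximal tubule 1 was called lower (6.44%). The other 11 were called in no comparison (Ift140, Ift20, Ift22, Ift27, Ift43, Ift46, Ift52, Ift57, Ift74, Ift80 and Ift81). The compartment means of these 11 spanned 0.39 to 1.12, and those of Ift88, Ift172 and Ift122 spanned 2.16, 1.90 and 1.89.

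Ift88, a subunit needed for assembly of the cilium and mutated in the Oak Ridge polycystic mouse, measured 10.84 and 12.35 in collecting duct, 12.55, 12.55 and 14.02 in proximal tubule, 11.80, 11.62 and 9.23 in muscle, and 11.80, 10.68 and 11.27 in urothelium. Proximal tubule lay above all other arrays, by 1.80 ± 0.57 (adjusted p = 0.047), with collecting duct 2 next to it. The call was lost without collecting duct 1, any proximal tubule array or urothelium 2 or 3 (differences 1.31 to 2.04, adjusted p 0.0604 to 0.237). Urothelium against proximal tubule was -1.79 (adjusted p = 0.113) and was called without muscle 3 (adjusted p = 0.0493).

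Ift122, a subunit of the retrograde complex, measured 12.02 and 12.38 in collecting duct, 12.07, 13.18 and 13.04 in proximal tubule, 11.17, 11.49 and 9.95 in muscle, and 11.33, 11.75 and 11.75 in urothelium. Muscle overlapped with urothelium, and proximal tubule with collecting duct. The differences were 1.20 ± 0.39 in proximal tubule (adjusted p = 0.0495) and -1.32 ± 0.39 in muscle (adjusted p = 0.033). The first was lost without any one of 9 arrays, all but proximal tubule 1 and muscle 2 (differences 0.99 to 1.26, adjusted p 0.0535 to 0.211). The muscle call was lost without collecting duct 2, proximal tubule 2 or 3 or muscle 1 or 3 (differences -0.86 to -1.47, adjusted p 0.0505 to 0.215).

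Ift172, a subunit of the anterograde complex, measured 10.08 and 9.12 in collecting duct, 9.93, 11.10 and 11.56 in proximal tubule, 9.48, 10.08 and 10.16 in muscle, and 9.23, 7.96 and 9.69 in urothelium. Urothelium lay below proximal tubule on every array, by -1.90 ± 0.54 (adjusted p = 0.037). The call was lost without proximal tubule 2 or 3 or urothelium 1 or 2 (differences -1.40 to -2.04, adjusted p 0.0667 to 0.129). In proximal tubule Ift172 differed by 1.37 ± 0.45 (adjusted p = 0.0544), and it was called there without proximal tubule 1 (1.84, adjusted p = 0.0273) or urothelium 3 (1.49, adjusted p = 0.0391). Without muscle array 2, Ift20 was called higher in muscle (1.31, adjusted p = 0.0347, against 0.89 and 0.121 with it).

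**Figure D4:**
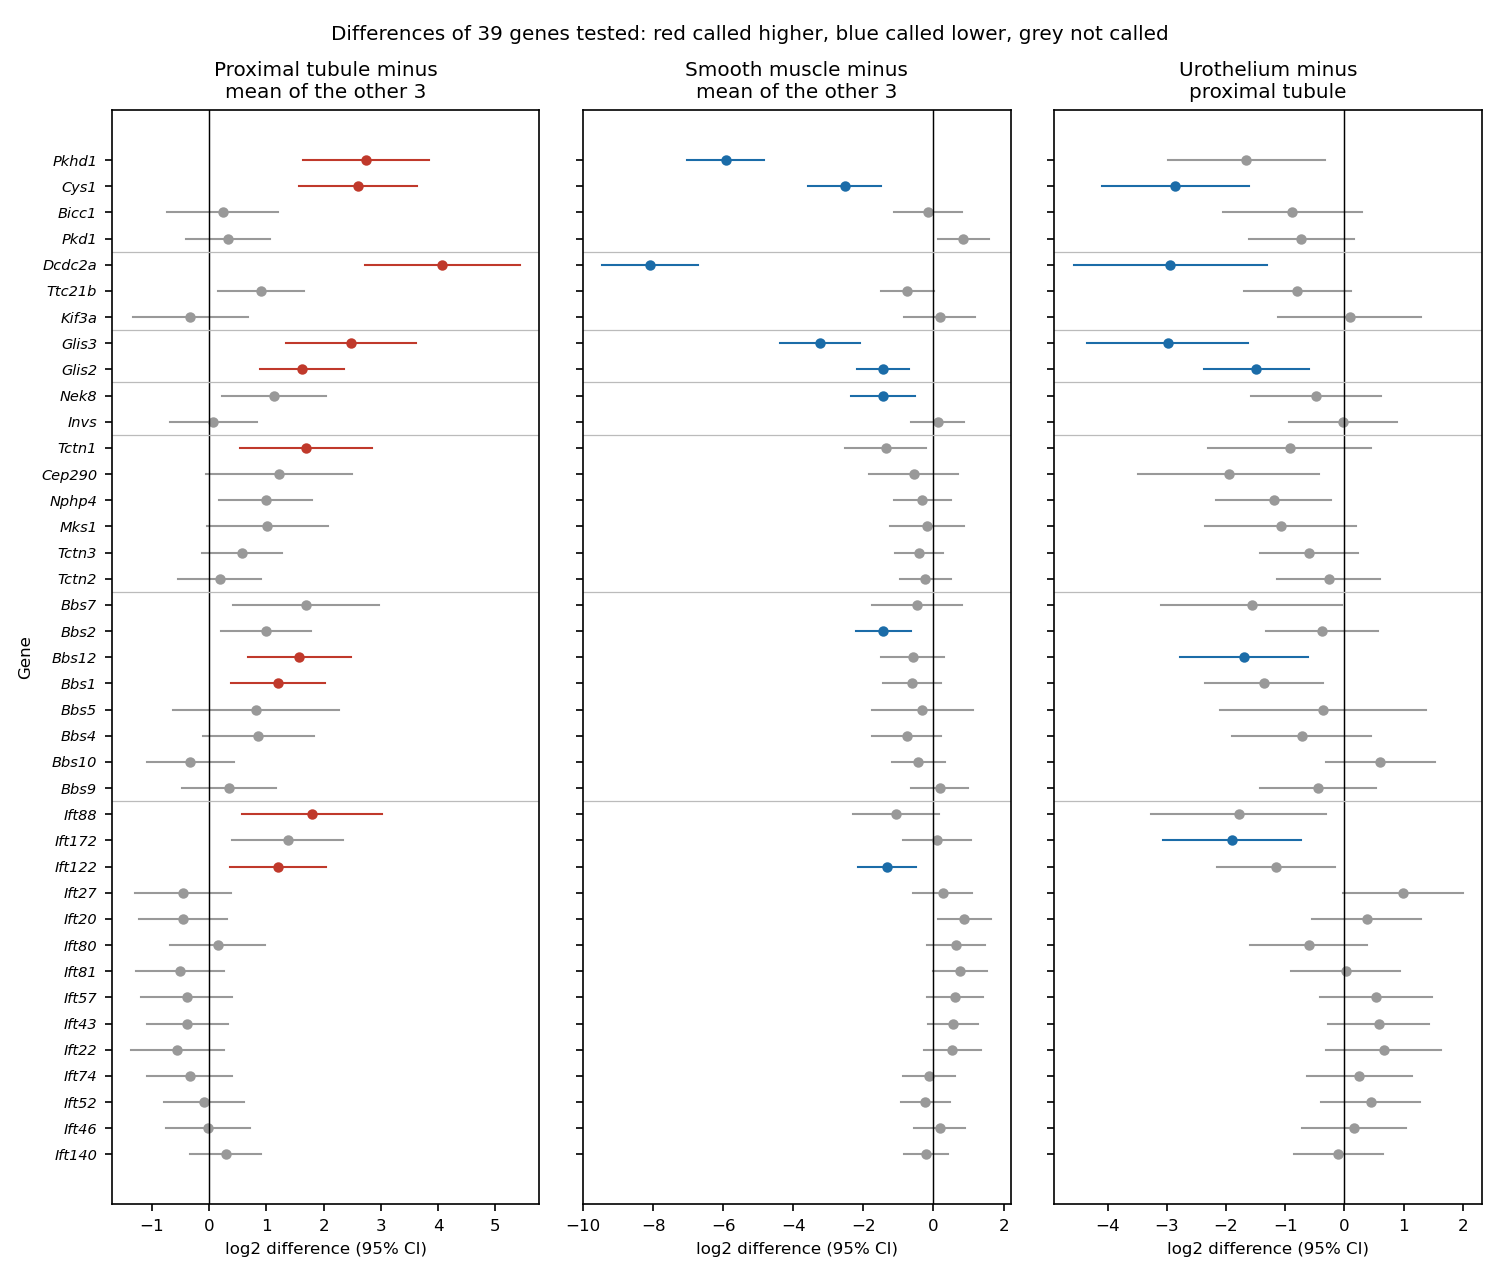
Log2 differences (points) with 95% intervals (lines) of the 39 genes tested, by role from polycystin and fibrocystin genes at the top to intraflagellar transport at the bottom, for proximal tubule and smooth muscle against the mean of the other 3 compartments and for urothelium against proximal tubule. Red marks genes called higher, blue called lower and grey not called. The -8.09 of Dcdc2a and -5.93 of Pkhd1 in muscle lie farthest from 0, and most transport genes lie within 1 of it.

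Of the 22 alternatives, label batch as a fixed block removed the most calls. With it, 3 of the 26 calls held, those of Dcdc2a, Pkhd1 and Glis3 in muscle, and 0 of 10 held in proximal tubule. All 26 differences kept their sign, their median size went from 2.19 to 1.86, and their median SE from 0.511 to 0.706. Several shrank far more. In proximal tubule Bbs1 went from 1.20 to 0.36, Ift122 from 1.20 to 0.30, Ift88 from 1.80 to 0.56 and Bbs12 from 1.57 to 0.98 (adjusted p 0.804, 0.848, 0.761 and 0.514). In muscle Nek8 went from -1.45 to -0.61 and Ift122 from -1.32 to -0.74 (adjusted p 0.512 and 0.447). In urothelium against proximal tubule Cys1 went from -2.85 to -1.27 and Bbs12 from -1.69 to -0.85 (adjusted p 0.793 and 0.853). With batch as a random block, 23 of 26 held. Within batch 4, collecting duct exceeded muscle by 8.76 for Dcdc2a, 5.94 for Pkhd1 and 3.61 for Glis3, and proximal tubule exceeded it by 9.42, 5.77 and 3.55. Within batches 1 and 2, urothelium exceeded muscle by 6.49 and 5.72 for Dcdc2a, 5.76 and 4.11 for Pkhd1, and 1.60 and 1.16 for Glis3. These are values of the probe set used, and on the other Dcdc2a probe set urothelium and muscle overlapped.

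**Figure D5:**
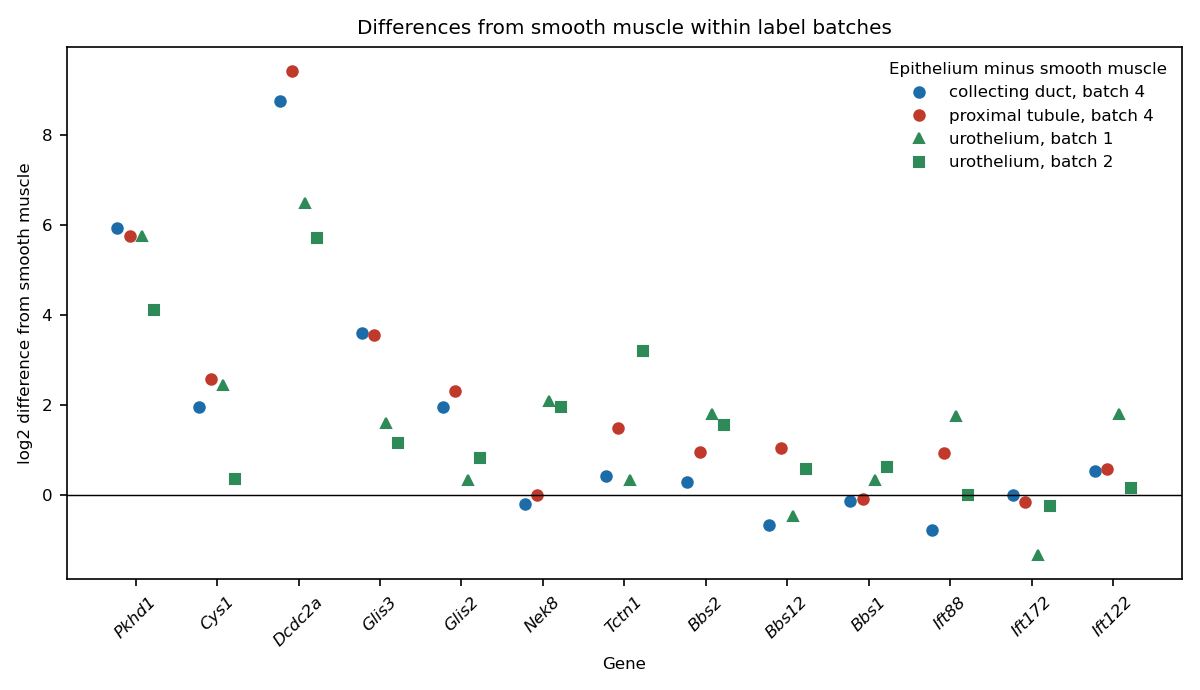
Log2 difference of collecting duct (blue), proximal tubule (red) and urothelium (green; triangles batch 1, squares batch 2) from smooth muscle within the same label batch, for the 13 called genes. Dcdc2a, Pkhd1, Glis3, Cys1, Glis2, Bbs2, Tctn1 and Ift122 lie above 0 at every point, and genes such as Bbs1, Bbs12 and Nek8 have points on either side of 0.

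The smaller contrasts varied between batches. Collecting duct minus proximal tubule was -2.20 in batch 3 and 0.16 in batch 4 for Ift172, and -1.49 and -0.06 for Bbs1. For Tctn1 it was -2.44 and -1.08, and for Cys1 -1.50 and -0.61. Nek8 exceeded muscle in urothelium by 2.09 and 1.95 in batches 1 and 2, while in batch 4 proximal tubule minus muscle was 0.00. These values are single differences given without a test. With batch as a fixed block, 0 of the 39 genes were called between collecting duct and proximal tubule.

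An X-box, the site of the RFX factors that act on many ciliary genes, was searched in the 300 bases around each RefSeq start site (250 before and 50 after) as GTTNCC, 0 to 3 free bases and NGNAAC on both strands. It was in 5 of the 34 members with a promoter in the table (14.7%), 2.14% of all 27025 genes there, 2.37% of 10949 genes tested and 8.54% of 82 other ciliary genes. The windows around the 5 matches are shown, since they are the members that carry the pattern, with the match in capitals and up to 8 bases on each side (GRCm38.p6, 5′ to 3′ on the strand of the gene).
Bbs7, chr3:36613489-36613518: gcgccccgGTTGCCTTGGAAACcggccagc
Ift57, chr16:49699226-49699254: gccctgcgGTTGCCTGGTAACggtgggga
Mks1, chr11:87853183-87853212: gcgtctccGTTGCCAGGGGAACgaggcacc
Tctn1, chr5:122264411-122264432: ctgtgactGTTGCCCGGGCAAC
Tctn3, chr19:40612351-40612379: tcccagcgGTTGCCAGGTAACgggaacca

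The matches begin 121, 60, 24 and 140 bases before the start site in Bbs7, Ift57, Mks1 and Tctn3, and 36 bases after it in Tctn1. Of these 5 genes, Tctn1 was called (above), and the compartment means of the other 4 spanned 1.88 for Bbs7, 0.88 for Ift57, 1.08 for Mks1 and 0.74 for Tctn3. Median GC content of the promoters was 59.5% in the 34 members and 60.3% in the genes tested. No match says only that these letters are not in this window, and a match only that they are. Binding was not measured.

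Other genes of the cilium and of cystic disease, in lists that are not members, are given as counts. Over all genes tested, 9.53% were called higher and 6.41% lower in proximal tubule, and 6.05% higher and 9.12% lower in muscle. In urothelium 0.713% were called lower. The medians over all genes tested were 0.05 in proximal tubule and -0.07 in muscle. Among 16 further transport and motor genes tested, 0 were called in proximal tubule or muscle, with medians of 0.19 and 0.29. Kif17, a homodimeric kinesin-2, was the gene of that list called in a compartment comparison, lower in urothelium by -1.61 ± 0.38 (adjusted p = 0.044), and lost without any one of 9 arrays (adjusted p 0.0518 to 0.232). Among 20 centriole and basal body genes 1 was called in proximal tubule and 0 in muscle. That gene was Ccp110, which caps the centriole (1.47 ± 0.40, adjusted p = 0.025).

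Among 14 other cystic disease genes tested, 4 were called higher in proximal tubule (median 0.51) and 1 lower in muscle (median -0.33). Kif12, a kinesin known as a modifier of cystic disease in the cpk mouse, had means of 10.30 in collecting duct, 13.45 in proximal tubule, 8.21 in muscle and 9.31 in urothelium. It was higher in proximal tubule by 4.17 ± 0.41 (adjusted p = 2.6e-05) and lower in muscle by -2.80 ± 0.41 (adjusted p = 0.00043), and both calls held in 22 of 22 alternatives. Tsc1 (hamartin), Dzip1l and Ganab, the latter a glucosidase subunit of the endoplasmic reticulum, were higher in proximal tubule by 1.41 ± 0.35, 1.26 ± 0.29 and 1.26 ± 0.34.

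Among 9 other BBSome-related genes, 2 were called higher and 1 lower in proximal tubule. Rab3ip, the exchange factor for Rab8 in ciliary membrane traffic, was higher in proximal tubule by 2.32 ± 0.46 (adjusted p = 0.0039) and lower in muscle by -2.79 ± 0.46 (adjusted p = 0.001). Sdccag8, a centrosomal protein, was higher in proximal tubule (1.16 ± 0.29) and Trim32, a ubiquitin ligase, lower (-1.40 ± 0.42). Among 17 further transition zone and nephronophthisis genes, Anks3 was higher in proximal tubule (1.31 ± 0.36), and the zinc-finger gene Zfp423 was lower there (-2.24 ± 0.47) and higher in muscle (1.67 ± 0.47).

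Among 14 genes of ciliary membrane traffic and signalling, 2 were called in each direction in proximal tubule. Evc2, a Hedgehog pathway protein at the ciliary base (1.52 ± 0.33), and Adcy6, an adenylyl cyclase (1.17 ± 0.32), were higher. Gpr161, a ciliary receptor that restrains Hedgehog signalling (-1.45 ± 0.32), and Arl2bp (-1.10 ± 0.32) were lower. In muscle Gpr161 was higher by 1.15 ± 0.32 and Adcy6 lower by -1.35 ± 0.32. Of 6 motile cilium genes tested, Hydin, a protein of the motile axoneme, was called higher in muscle (1.50 ± 0.34, adjusted p = 0.0082), and of 5 RFX and other cilium transcription factors tested 0 were called in proximal tubule or muscle. Of the 34 calls of these other genes in the 7 comparisons, 14 held without proximal tubule array 2 and 14 without array 3. With label batch as a fixed block 4 of the 34 held, and without the 2 arrays of batch 2 16 held.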

How the data were processed

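The deposited table gives, for each of 45101 Affymetrix probe sets, an intensity on a linear scale from GCOS, per the submitters' processing notes, which state no version. Every array had the same mean of 1500 after trimming 2% at each end, so the authors' scaling was kept. No detection calls were used. A pseudocount of 55, the 20th percentile, was added before taking log2. Probe sets above their array's median on at least 2 arrays were kept, and a gene was read from its brightest probe set. Gene symbols came from GEO's platform annotation, and promoters and positions from RefSeq (GRCm38.p6). The members and lists were chosen with earlier results of these data known.

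A limma fit (limma 3.58.1, R 4.3.3) over all 11 arrays gave each compartment a mean, with 7 residual and 6.38 prior degrees of freedom. Array values are given for members called in any comparison and for the fixed genes Pkd1, Pkhd1, Cys1, Bicc1 and Kif3a. Pkd2, also fixed, had no probe set with 1 symbol. From each other list up to 4 genes called in a compartment comparison are named, with the largest moderated t first. Alternatives were 11 single choices (normalization, pseudocount, filter, probe set, eBayes options and label batch) and leaving out each of the 11 arrays. Data were simulated for 13614 genes with independent noise, no batch effect and few genes changed. In the order collecting duct, proximal tubule, muscle, urothelium, the fit recovered 16%, 38%, 38% and 29% of log2 changes of 1.5. For changes of 3 it recovered 96%, 99%, 98% and 99%. Far more genes were called in proximal tubule and muscle than were changed in the simulation, so its shares need not hold there.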

Additional observations from a re-analysis of the deposited data

How the results depend on the processing

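No called difference of a member changed sign under any of the alternatives that could be computed for it. The count of calls went from 2 to 1 in collecting duct and from 10 to 6 in proximal tubule with a pseudocount of 12, and from 10 to 6 in proximal tubule with no filter on dim probe sets. With label batch as a fixed block it was 0 in collecting duct, 0 in proximal tubule, 3 in muscle and 0 for urothelium against proximal tubule (main counts 2, 10, 8 and 6). Without the 2 arrays of batch 2 it was 1 in collecting duct, 4 in muscle, 1 for collecting duct against proximal tubule and 2 for urothelium against proximal tubule. A pseudocount of 190 gave 1 call for urothelium against collecting duct, Glis3. The causes were not tested. Leaving out single arrays gave 0 to 3 calls in collecting duct, 5 to 10 in proximal tubule, 4 to 9 in muscle, 0 to 2 in urothelium, 0 to 1 for collecting duct against proximal tubule, 2 to 7 for urothelium against proximal tubule and 0 to 2 for urothelium against collecting duct. Where 1 collecting duct array was left, it was assumed to vary like the other compartments. No paired analysis was possible because the replicate numbers only name arrays in accession order and share no pairing across compartments, and the label batches gave the block above. With 2 or 3 arrays a compartment, changes near a log2 of 1.5 were often missed in simulation, and the muscle differences ran from -9.44 to -4.61 for Dcdc2a and from -7.43 to -4.47 for Pkhd1 over all alternatives.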
